A study of Mus musculus with 9 samples.

Results

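Tubule injury and repair marker genes were followed through embryonic mouse kidney cells in which Tsc1 had been deleted from the nephron lineage, with and without rapamycin. The 9 genes were Spp1, Cd44, Havcr1, Lcn2, Clu, Vcam1, Krt20, Vim and Sox9. They were picked by symbol as established markers of tubule injury, and they are 9 of the 54838 genes in the deposited table. Earlier results of these data were known when they and the gene lists read beside them were chosen. Counts of calls among them are thus not independent of the data.

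Kidneys of CD1 embryos were dispersed, stained for the surface protein CD133 (prominin-1) and sorted, and the labels call the sorted cells proximal tubule cells. The 9 libraries fell into 3 groups of 3. Control embryos had the genotype Tsc1 fl/fl without Cre (the titles call them wild type), and their dams received DMSO, the vehicle. Mutant embryos had the genotype Six2 Cre Tsc1 fl/fl, and their dams received either DMSO or rapamycin. Floxed Tsc1 was thus shared by all groups, and Six2 Cre was carried by both mutant groups. Six2 Cre is active in nephron progenitors, so tubule and podocyte lineages are recombined while stroma, vessels, blood cells and the ureteric tree are not. Rapamycin was injected intraperitoneally into the dam, 0.2 mg/kg on alternate days between E12.5 and E16.5, and the kidneys were collected at E18.5. Rapamycin-treated controls were not analysed here, so an effect of the drug that needs no Tsc1 loss cannot be told apart from its effect on the mutant. The labels give each replicate a number and do not say whether it is 1 embryo, a litter or a pool, so the p-values measure the spread between libraries, which may be partly technical.

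TSC1 restrains mTORC1, the growth-promoting kinase complex that rapamycin inhibits. When an adult tubule is damaged, surviving epithelial cells flatten, lose transport proteins and switch on a recognisable set of genes. Some of these encode secreted proteins that appear in urine or matrix (osteopontin from Spp1, lipocalin-2 or NGAL from Lcn2, clusterin from Clu). Others encode surface proteins (the hyaluronan and osteopontin receptor CD44, the phosphatidylserine receptor KIM-1 from Havcr1, the integrin ligand VCAM-1), filaments (keratin 20, vimentin) or the repair transcription factor SOX9. Several of them also mark normal developing kidney: Sox9 and Lcn2 are expressed in the ureteric tree, Vim in stroma and immature epithelium, Vcam1 in vessels and stroma, and Cd44 and Spp1 in macrophages as well as epithelium.

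Library totals ranged from 23372093 to 32669791 counts. Reads on Gm42418, a gene model that overlaps ribosomal RNA, took 5.18% of control 1 and 2.8% of rapamycin 2, above the share of any single gene in the other libraries. Control 1 had 0 counts of the Y-linked gene Ddx3y, and the other 8 libraries had 448 to 1415. Normalized counts of Tsc1 were 1439 to 2041 in controls, 1570 to 1747 in vehicle mutants and 1526 to 1686 in rapamycin mutants. The count covers the whole gene and the sort held unrecombined cells too, so this range does not check the genotype labels. Prom1, which encodes the sorted surface protein, lay between 2453 and 3362 in every library. All 10 proximal tubule markers were detected, with summed normalized counts of 19583 to 25070 in controls. The 10 stromal markers summed to 131766 to 148761 in the same libraries, so RNA of stromal genes was abundant in the sorted cells. In such bulk RNA, fewer cells of a type and less RNA per cell cannot be told apart.

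The promoters of Spp1 and Cd44 are shown because these were the members whose RNA differed between vehicle mutants and controls. RefSeq (GRCm38.p6) promoters were matched for 6 of the 9 members, leaving Clu, Vcam1 and Sox9 named only. Each sequence is the 250 bases before the RefSeq start nearest to the annotated gene start, read on the gene's strand, with motif matches in capitals. The Spp1 promoter lies at chr5:104434861-104435110 on the plus strand and the Cd44 promoter at chr2:102901666-102901915 on the minus strand.
Spp1 promoter: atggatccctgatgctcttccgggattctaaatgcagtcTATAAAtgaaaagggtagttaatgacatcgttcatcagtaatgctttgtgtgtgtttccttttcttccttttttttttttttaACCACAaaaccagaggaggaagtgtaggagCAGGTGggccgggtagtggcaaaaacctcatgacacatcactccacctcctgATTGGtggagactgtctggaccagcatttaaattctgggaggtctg
Cd44 promoter: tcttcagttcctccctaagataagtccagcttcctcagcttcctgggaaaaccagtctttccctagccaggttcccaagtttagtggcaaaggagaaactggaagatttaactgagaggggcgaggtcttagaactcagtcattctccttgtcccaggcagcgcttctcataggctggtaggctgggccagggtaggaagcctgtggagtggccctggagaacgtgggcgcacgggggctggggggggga

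Both strands were searched for 8 motifs. They were the E-box CANNTG, its forms CACGTG and CATGTG (which also count as E-boxes), the AP-1 motif TGANTCA, the RUNX motif ACCACA, the TATA box TATAAA, the CCAAT box CCAAT and the GC box GGGCGG. The Spp1 promoter held 1 E-box (CAGGTG, starting at base -98), 1 RUNX motif (-128), 1 TATAAA (-211) and 1 CCAAT box read on the opposite strand as ATTGG (-46). Of 32851 mouse promoters of the same length, 66.2% held an E-box, 14% the RUNX motif, 12.4% TATAAA and 33.8% a CCAAT box. CACGTG was found in 6.02%, CATGTG in 12.3%, TGANTCA in 6.75% and GGGCGG in 32.7%, and none of these 4 was in the Spp1 window. None of the 8 motifs was in the Cd44 window. A match is a run of letters and not a measured binding site.

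Levels between genes were compared as mean normalized counts per kilobase of annotated exon. In control cells Vim (2655 per kb) and Clu (2346) were highest, and their libraries overlapped. Next came Vcam1 (223.4), Lcn2 (191.5), Spp1 (146.7) and Sox9 (135.3), of which each overlapped its neighbour. Cd44 was lower at 68.3 per kb, Krt20 stood at 4.67 and Havcr1 at 0.291. Among all tested genes Vim was at the 98.3 percentile, Spp1 at the 59.1 and Krt20 at the 9.98. Control cells thus held RNA of most of these genes, with Krt20 and Havcr1 near the bottom.

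In vehicle mutants Spp1 ranked below Vim and Clu at 536.2 per kb (the 86.6 percentile), above Vcam1 at 154.7 and Cd44 at 135.1. Vcam1, Cd44, Sox9 (121.7) and Lcn2 (82.4) formed a run in which neighbours overlapped. In rapamycin mutants Spp1 stood at 188.7 per kb, overlapping Vcam1 (232.3) above it and Cd44 (159.9) below it. Havcr1 stayed last in all 3 groups, at 2.68 per kb in vehicle mutants and 0.936 in rapamycin mutants.

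**Figure D1:**
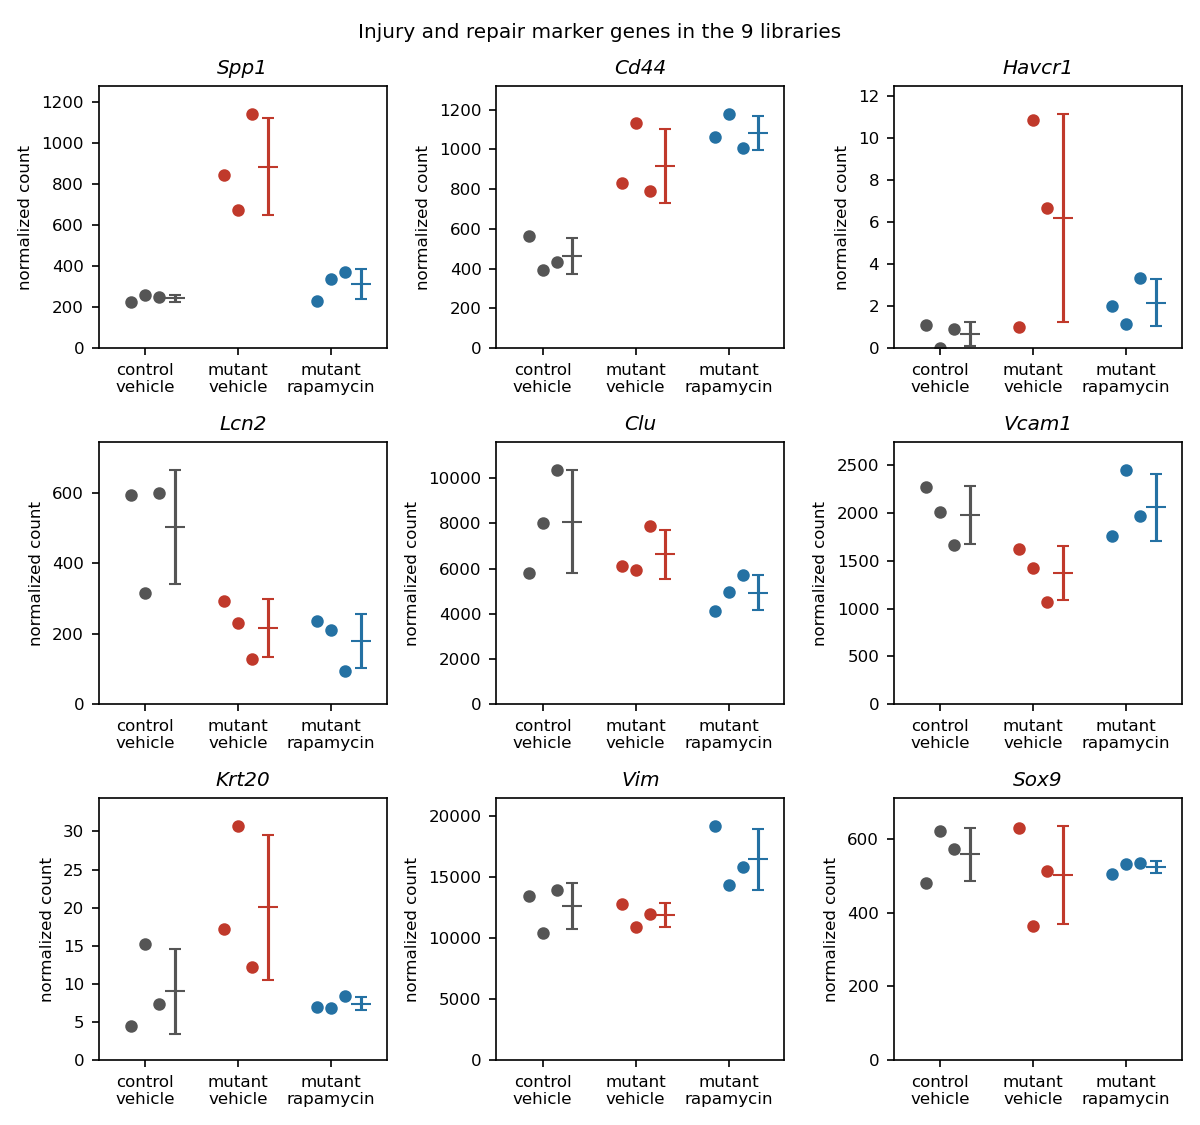
Normalized counts (vertical axes, each starting at 0) of the 9 marker genes in the 3 libraries of each group (points), with the group mean and SD beside them (bars). Spp1 is high in the 3 vehicle mutants alone, Cd44 is high in all 6 mutant libraries, and Lcn2 is low in all 6.

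Vehicle mutants were first compared with vehicle controls, which asks how the marker genes differ with Tsc1 loss. The controls lacked Six2 Cre, so an effect of Cre itself cannot be told apart from that of Tsc1 loss. Of the 8 members tested, 2 rose (Spp1 and Cd44) and none fell by limma at an adjusted p under 0.05, while 5 passed an unadjusted p under 0.05. Over all 19656 genes tested, 1.05% were called higher and 0.366% lower, and 10.1% had an unadjusted p under 0.05. The median log2 fold change of the 8 members was -0.13, against -0.01 over all genes. With the replicate number of these groups as a block 3 were called, Vcam1 being the 1 that fell. The markers did not share 1 direction: Krt20 was numerically higher, Lcn2, Clu and Vcam1 numerically lower, and Sox9 and Vim close to control.

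Spp1 encodes osteopontin, a secreted acidic glycoprotein that binds integrins and CD44 and is made by stressed tubule cells and by macrophages. Its normalized counts were 222.3, 255.9 and 247.1 in controls and 841.4, 670.4 and 1139 in vehicle mutants. The lowest mutant library was thus more than any control library, and the groups were far apart. The mean went from 241.8 ± 17.4 to 883.6 ± 237.2 (SD, n = 3 each), a log2 fold change of 1.83 ± 0.22 (SE) or 3.57-fold (limma adjusted p = 0.00224). The 95% interval ran from 1.34 to 2.33 on the log2 scale, and the gene ranked 45 by p among all genes tested. The call held without each of the 9 libraries in turn, where the log2 fold change ranged from 1.63 to 2.02. The authors' deposited table gives a log2 fold change of 1.87 and an adjusted p of 1.82e-12 for this comparison.

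With rapamycin, Spp1 stood at 229.4, 334 and 369.5, a mean of 311 ± 72.9 (SD, n = 3). All 3 treated libraries were below all 3 vehicle mutants, and 1 of them lay inside the control range. Against vehicle mutants Spp1 fell by 1.50 ± 0.22 on the log2 scale, or 2.83-fold (limma adjusted p = 0.0235), and ranked 28 by p. It was the 1 member called in that comparison. The call was lost, with the direction kept, without control 2 (adjusted p = 0.0535), mutant 2 (0.0526), mutant 3 (0.082), rapamycin 1 (0.0927) or rapamycin 2 (0.0952), and without both control 1 and rapamycin 2 (0.0707). It held without each of the other 4 libraries. The authors' deposited table gives -1.51 with an adjusted p of 1.58e-07.

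Against controls, rapamycin mutants differed by 0.34 ± 0.22 in log2 Spp1 (95% interval -0.16 to 0.83, limma adjusted p = 0.491). A remaining rise of up to that upper bound is compatible with the interval, so equality with control is not shown. These comparisons share libraries, so a high or low vehicle mutant moves the first and second in opposite directions.

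Markers of other Spp1-expressing cells were read beside it. The 10 leukocyte markers, all detected in every group, summed to 12806 to 18972 in controls, to 13406, 30718 and 26189 in vehicle mutants 1, 2 and 3, and to 13421 to 18247 with rapamycin. Mutant 1, with 841.4 Spp1 counts, had a leukocyte sum inside the control range. None of the 10 leukocyte genes was called by limma in any comparison, with 3 at an unadjusted p under 0.05 between vehicle mutants and controls, 2 between rapamycin and vehicle mutants and 0 between rapamycin mutants and controls. Over all genes the shares at that threshold were 10.1%, 11.7% and 17.5% in the same order. All 10 leukocyte genes were numerically higher in vehicle mutants than in controls. The 10 loop of Henle and distal tubule markers summed to 8561 to 12428 in controls, 7231 to 12619 in vehicle mutants and 5437 to 8719 with rapamycin, and the part of either cell type in the Spp1 result was not tested.

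By the root mean square difference of library-centred log2 values over the 9 libraries, the genes closest to Spp1 among 12124 candidates were Aoc1 (0.36), Pcsk2 (0.41) and Uap1l1 (0.42). The SD of Spp1 itself on that scale was 0.84. Aoc1, which encodes the diamine-degrading amine oxidase, had 60.53, 83.5 and 81.76 normalized counts in controls and 119.9, 161.4 and 233.2 in vehicle mutants. With rapamycin it had 70.82, 81.22 and 87.15, and so had the same 3 libraries on top as Spp1. Pcsk2, a prohormone convertase, ranged from 170.6 to 210.1 in controls, from 292.1 to 526.6 in vehicle mutants and from 217.4 to 239.7 with rapamycin. These genes were chosen for their likeness and carry no test.

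Cd44 encodes the transmembrane receptor for hyaluronan, which also binds osteopontin and appears on regenerating tubule cells, stroma and leukocytes. Its normalized counts were 562.4, 394.2 and 431.8 in controls and 829.3, 1130 and 787.7 in vehicle mutants. No mutant library overlapped a control library. The mean went from 462.8 ± 88.3 to 915.6 ± 186.8 (SD, n = 3 each), a log2 fold change of 0.98 ± 0.18 (SE) or 1.97-fold (limma adjusted p = 0.0215). The call was lost without control 2 (adjusted p = 0.112), control 3 (0.0606) or mutant 2 (0.115), and when the rapamycin libraries were left out of the fit (0.0945). The authors' deposited table gives 0.99 with an adjusted p of 5.97e-05.

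Cd44 was not lower with rapamycin. The treated libraries had 1064, 1177 and 1008 normalized counts, a mean of 1083 ± 86.1 (SD, n = 3), and overlapped the vehicle mutants. The difference from vehicle mutants was 0.26 ± 0.18 in log2 (95% interval -0.13 to 0.64, limma adjusted p = 0.635). Against controls Cd44 rose by 1.24 ± 0.18, or 2.36-fold (limma adjusted p = 0.00438), and this call held without each of the 9 libraries. It was the 1 member called in that comparison. Over all genes, 0.244% were called higher and 0.056% lower between rapamycin and vehicle mutants, and 2.3% higher and 0.941% lower between rapamycin mutants and controls. Receptor and ligand thus separated under the drug, with Cd44 at its highest mean and Spp1 near its control level. The difference between the responses of both genes was not itself tested.

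Several marker sums were read beside Cd44. The 8 nephron progenitor markers summed to 5484 to 6157 in controls, 9081 to 12216 in vehicle mutants and 11208 to 14978 with rapamycin. The members differed: mean Six2 was 1109 in controls, 3355 in vehicle mutants and 4465 with rapamycin, while Gdnf was 2129, 1488 and 1695 and Tmem100 was 647.7, 370.5 and 334.8. The 10 proximal tubule markers summed to 25623 to 28682 in vehicle mutants and 33349 to 44920 with rapamycin, both above the control range. Leukocyte sums were as given for Spp1. Stromal sums were 121815 to 140513 in vehicle mutants and 188343 to 238155 with rapamycin. The part of these cell types in the Cd44 result was not tested.

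The genes closest to Cd44 by the same measure were Ccl3 (0.11), Hoxc6 (0.16) and Apcdd1 (0.16), against an SD of 0.57 for Cd44 itself. Ccl3, a chemokine gene, had 244.3, 167.9 and 169 normalized counts in controls and 372.8, 435.7 and 296.8 in vehicle mutants. With rapamycin it had 394, 511.4 and 469.2, so that it kept the order of the 3 group means of Cd44. Apcdd1, which encodes a Wnt inhibitor, ranged from 1486 to 2049 in controls, 2969 to 3710 in vehicle mutants and 3878 to 5383 with rapamycin.

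**Figure D2:**
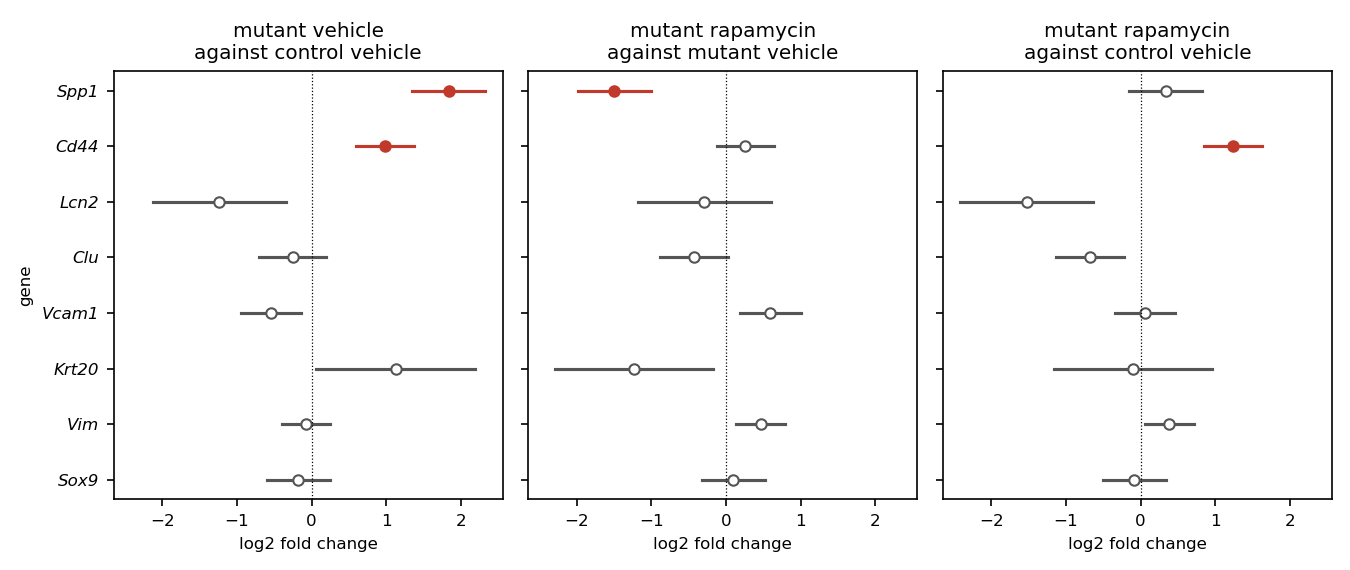
Log2 fold changes (points) with 95% intervals (lines) of the 8 tested marker genes in the 3 comparisons. Red filled points are calls at an adjusted p under 0.05: Spp1 and Cd44 against control, Spp1 under rapamycin at -1.50, and Cd44 between rapamycin mutants and controls at 1.24.

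Havcr1 encodes KIM-1, the receptor through which injured proximal tubule cells take up dying neighbours. It was barely present. Raw counts were 1, 0 and 1 in controls, 1, 11 and 6 in vehicle mutants, and 2, 1 and 4 with rapamycin. The gene fell under the minimum mean count and was not tested. Summed counts were 2, 18 and 7, a ratio of vehicle mutant to control of 9.66 (exact 95% counting interval 2.31 to 85.8). The ratio of vehicle to rapamycin mutants was 2.72 (1.09 to 7.72). These intervals cover counting error only, and mutant 1 with its single read matched the controls. The authors' deposited table gives adjusted p-values of 0.423 and 0.852 for these comparisons. The level was thus marginal in every group, and the spread between libraries was not tested.

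Lcn2 encodes lipocalin-2 (NGAL), a secreted iron-siderophore carrier that rises steeply in distal nephron and collecting duct after injury. Its values pointed the other way. Controls had 593.2, 316.1 and 598 normalized counts, vehicle mutants 292.2, 228.8 and 127.2, and rapamycin mutants 236.4, 210.5 and 93.01. All 6 mutant libraries lay below all 3 controls, whose own spread was wide (502.4 ± 161.4, SD, n = 3). The log2 difference of vehicle mutants from controls was -1.24 ± 0.40 (95% interval -2.12 to -0.35, limma adjusted p = 0.24). For rapamycin mutants it was -1.53 ± 0.40 (limma adjusted p = 0.0688, unadjusted p = 0.00301), and neither was called. The authors' deposited table gives -1.22 with an adjusted p of 0.0517 and -1.48 with an adjusted p of 0.00371, so the second comparison is past 0.05 there and not here. Between rapamycin and vehicle mutants Lcn2 differed by -0.29 ± 0.40, with an interval from -1.18 to 0.60.

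The 10 ureteric bud and collecting duct markers summed to 4988 to 6162 in controls, 3045 to 3519 in vehicle mutants and 5559 to 6214 with rapamycin. Of these 10 genes, 5 fell in vehicle mutants against controls, where 0.366% of all genes were called lower. With rapamycin 5 rose against vehicle mutants, where 0.244% of all genes were called higher. The markers differed: mean Aqp2 was 1230 in controls, 190.9 in vehicle mutants and 1095 with rapamycin. Ret was 462.5, 391.2 and 448.6 in the same order, and Hoxb7 was 768.6, 740.6 and 617.3. Lcn2 remained low in the rapamycin libraries, in which the ureteric sum was inside or above the control range. Whether these cells contributed to the lower Lcn2 of vehicle mutants was not tested.

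Clu encodes clusterin, a secreted chaperone that is abundant in developing and in injured tubules. Controls spread widely, with 5802, 8030 and 10358 normalized counts. Vehicle mutants had 6099, 5930 and 7876 and lay within that range, and rapamycin mutants had 4128, 4972 and 5699, each below the lowest control. The log2 difference between rapamycin mutants and controls was -0.68 ± 0.21 (95% interval -1.13 to -0.23) and missed the call (limma adjusted p = 0.108). Without control 1 it was -0.90 and was called (limma adjusted p = 0.0176). The authors' deposited table gives -0.71 with an adjusted p of 0.0314. The sums of the 8 podocyte markers were also lower in rapamycin mutants (17502 to 20226 in controls, 13247 to 16185 with rapamycin). Loop and distal sums, given above, tended lower but overlapped, with rapamycin 3 (8719) above control 1 (8561). The part of these cell types in the Clu values was not tested. Vehicle mutants differed from controls by -0.25 ± 0.21 in log2 (limma adjusted p = 0.811).

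Vcam1 encodes the adhesion receptor that binds integrin alpha4beta1 on leukocytes and marks tubule cells that fail to complete repair. Normalized counts were 2271, 2008 and 1666 in controls, 1626, 1423 and 1067 in vehicle mutants, and 1764, 2450 and 1967 with rapamycin. The 3 vehicle mutants were the lowest of the 9 libraries. The log2 difference from controls was -0.54 ± 0.18 (95% interval -0.94 to -0.14) and was not called (limma adjusted p = 0.265). With the replicate number of these groups as a block the same difference was called (SE 0.12, adjusted p = 0.0291). In that blocked fit 867 of 19656 genes were called, against 279 without the block. Rapamycin mutants were 0.59 ± 0.18 higher than vehicle mutants in log2 (limma adjusted p = 0.231), and within 0.05 ± 0.18 of controls.

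Vim encodes vimentin, the intermediate filament of mesenchyme and of dedifferentiated tubule cells. Normalized counts were 13467, 10423 and 13889 in controls, 12780, 10880 and 11945 in vehicle mutants, and 19158, 14323 and 15804 with rapamycin. Vehicle mutants lay inside the control range (log2 difference -0.08 ± 0.15), and each rapamycin library was above both other groups. The log2 differences of rapamycin mutants were 0.46 ± 0.15 from vehicle mutants (limma adjusted p = 0.248) and 0.38 ± 0.15 from controls (0.204), neither of which was called. Of the 10 stromal markers, 4 rose between controls and rapamycin mutants, where 2.3% of all genes were called higher. Numerically 9 of the 10 were higher. The stromal sum had its 3 highest values in the same libraries as Vim. That sum was largely RNA of the collagen genes Col1a1, Col1a2 and Col3a1, and mean Meis1 was 3318 in controls and 3290 with rapamycin. Endothelial sums were 21462 to 24672 in controls, 19987 to 25927 in vehicle mutants and 27353 to 36780 with rapamycin. The part of stroma and vessels in the Vim and Vcam1 values was not tested.

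Krt20 encodes an intestinal and urothelial keratin that damaged tubule cells express. It was rare, with 4.402, 15.26 and 7.349 normalized counts in controls, 17.13, 30.7 and 12.27 in vehicle mutants, and 6.982, 6.864 and 8.379 with rapamycin. All 3 vehicle mutants exceeded all 3 rapamycin libraries, while control 2 overlapped the vehicle mutants. The log2 differences were 1.13 ± 0.48 against controls (limma adjusted p = 0.45) and -1.23 ± 0.48 for rapamycin against vehicle mutants (0.351). Summed raw counts of 29, 59 and 23 gave a ratio of vehicle mutant to control of 2.18 (exact 95% counting interval 1.38 to 3.53). That interval covers counting error only and leaves out the spread between libraries. Control 2 held 17 of the 29 reads and mutant 2 held 31 of the 59.

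Sox9 encodes a transcription factor of ureteric tips and nephron precursors that is switched on again in regenerating tubules. It was flat. Normalized counts were 482, 623.1 and 573.2 in controls, 630.8, 365.4 and 513.2 in vehicle mutants, and 506.7, 533.1 and 534.6 with rapamycin. The 3 groups overlapped, and the vehicle mutants spread most (503.1 ± 133, SD, n = 3). The log2 difference of vehicle mutants from controls was -0.18 ± 0.19 (limma adjusted p = 0.891), and rapamycin mutants differed from controls by -0.08 ± 0.19 (0.87). Without mutant 2, the lowest library, the first difference was 0.03.

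A wider list of 92 injury and repair genes, of which 84 were tested, was read around the markers. It held their receptors and partners, chemokines, other keratins, repair transcription factors and stress genes. Against controls, vehicle mutants had 1 gene called higher (Cdkn1a) and 1 called lower (Krt7), with 19 at an unadjusted p under 0.05. Over all genes 1.05% were called higher, 0.366% lower, and 10.1% had an unadjusted p under 0.05. The median log2 fold change was 0.09, against -0.01 over all genes. With the replicate number as a block the counts were 10 higher and 3 lower, and over all genes of that fit 2.85% were called higher and 1.56% lower. Cdkn1a, Has2, Atf3, Nupr1, Ccl2, Cxcl2, Cxcl16, Tnf, Icam1 and Slc22a17 were then higher, and the simple-epithelial keratin genes Krt7, Krt8 and Krt18 lower. Among the largest of these blocked log2 fold changes were Nupr1, a stress-response gene, at 1.26 ± 0.25 (limma adjusted p = 0.0194) and the neutrophil chemokine gene Cxcl2 at 1.02 ± 0.14 (0.0024).

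Cdkn1a encodes p21, a cell cycle inhibitor induced by p53 and by tubule damage. It had 485.3, 484 and 598 normalized counts in controls, 887.7, 960.6 and 1151 in vehicle mutants, and 875.7, 1321 and 1057 with rapamycin. All 6 mutant libraries were above all controls, as for Cd44. The log2 rise was 0.93 ± 0.17 in vehicle mutants (limma adjusted p = 0.0242) and 1.04 ± 0.17 in rapamycin mutants (0.0102). The vehicle call was lost without control 1, control 2, mutant 2, mutant 3 or rapamycin 3 (adjusted p up to 0.125), and the rapamycin call without control 2 (0.0626) or without both control 1 and rapamycin 2 (0.0536).

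Krt7, a keratin of the ureteric tree and simple ducts, had 416, 622.2 and 691.7 normalized counts in controls and 211.6, 257.5 and 335.8 in vehicle mutants. No mutant library reached the lowest control. The log2 fall was -1.09 ± 0.22 (limma adjusted p = 0.0402), a call that held only without control 1 or mutant 3 among the 9 libraries left out in turn. With rapamycin Krt7 stood at 342.1, 339.8 and 408.1, between both other groups. The lower ureteric marker sums of vehicle mutants accompanied this fall, and their part in it was not tested.

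Between rapamycin and vehicle mutants 1 of the 84 genes was called, where 0.244% of all genes were called higher and 0.056% lower. Cyr61 (Ccn1), a matricellular integrin ligand and a known target of YAP, had 3409, 2012 and 2709 normalized counts in vehicle mutants and 9842, 12360 and 8610 with rapamycin. Controls had 4049, 3351 and 3093, so the treated libraries stood apart from both other groups. The log2 rise was 1.94 ± 0.20 against vehicle mutants (limma adjusted p = 0.00508) and 1.55 ± 0.20 against controls (0.00248). Without rapamycin 2 the first was 1.80 with an adjusted p of 0.0505, and 0 genes of the whole table were called in that fit. The median over the list was 0.00 on the log2 scale, with 23 genes at an unadjusted p under 0.05, which 11.7% of all genes reached.

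Rapamycin mutants differed from controls in 10 of the 84 genes, 8 higher and 2 lower, with 32 at an unadjusted p under 0.05. Over all genes 2.3% were called higher and 0.941% lower, and 17.5% had an unadjusted p under 0.05. Besides Cyr61 and Cdkn1a, the stress transcription factor gene Atf3 rose by 1.84 ± 0.23 (limma adjusted p = 0.00233) and held without each library. Its normalized counts were 641.6, 387 and 373 in controls, 988.5, 673.4 and 836.8 in vehicle mutants, and 1447, 2058 and 1448 with rapamycin. Values thus stepped up from group to group without overlap between neighbouring groups. Has2, which makes hyaluronan, the main ligand of CD44, rose by 1.30 ± 0.25 (0.0183). Its normalized counts were 432.5, 260.4 and 230.6 in controls, 661, 570.4 and 398.3 in vehicle mutants, and 802.9, 700.1 and 688 with rapamycin. Control 1 was above the lowest vehicle mutant, and the rapamycin libraries were the 3 highest.

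Klf6, a zinc finger gene of early injury, rose from 1285 to 2276 normalized counts in controls to 3137 to 5010 (limma adjusted p = 0.0244). The NF-kB feedback inhibitor gene Tnfaip3 rose by 1.09 ± 0.23 in log2 and Myc by 0.63 ± 0.14. Lrp2, which encodes megalin and is both a lipocalin-2 receptor and a proximal tubule marker, rose by 0.99 ± 0.21. The genes called lower were Anxa1, encoding the anti-inflammatory phospholipid-binding annexin A1, at -1.05 ± 0.19, and the nephric transcription factor gene Pax8 at -0.76 ± 0.17. Their limma adjusted p-values ran from 0.0155 (Anxa1) to 0.0399 (Myc). These calls and that of Has2 depended on single libraries, with adjusted p up to 0.182 (Myc, without control 2). Klf6 lost its call without control 2, control 3, rapamycin 2 or rapamycin 3, and Anxa1 without control 3, rapamycin 2 or rapamycin 3. Has2 and Tnfaip3 lost it without control 2, control 3 or any rapamycin library, and Lrp2 and Pax8 without any of these or mutant 2. Myc kept it only without control 1 or mutant 1.

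By role, none of the 22 tested secreted and inflammatory genes and none of the 10 integrin genes that pair for osteopontin, VCAM-1 or related matrix ligands was called by limma without the replicate block in any of the 3 comparisons. An unadjusted p under 0.05 was reached by 5 of the 22 and 1 of the 10 between vehicle mutants and controls, 5 and 3 between rapamycin and vehicle mutants, and 10 and 2 between rapamycin mutants and controls. Over all genes the shares at that threshold were 10.1%, 11.7% and 17.5% in the same order. Among the 22, Ccl2 was 0.97 ± 0.25 higher in log2 in vehicle mutants than in controls (limma adjusted p = 0.113). With the block 3 of the 22 were called higher in that comparison, Ccl2 (0.0429), Cxcl16 (0.0205) and Cxcl2 (0.0024). Over all genes of that blocked fit 2.85% were called higher and 1.56% lower. Of the 8 tested hyaluronan and CD44 partners, 1 (Has2) was called without the block. That call was between rapamycin mutants and controls, where 2.3% of all genes were called higher. Of 9 transcription factor genes 3 rose and 1 fell between controls and rapamycin mutants, where 2.3% of all genes rose and 0.941% fell. None of the 9 was called in the other comparisons without the block. Atf3 was called between vehicle mutants and controls with the block (limma adjusted p = 0.0113), without control 1 (0.0209) and without both control 1 and rapamycin 2 (0.0155).

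**Figure D3:**
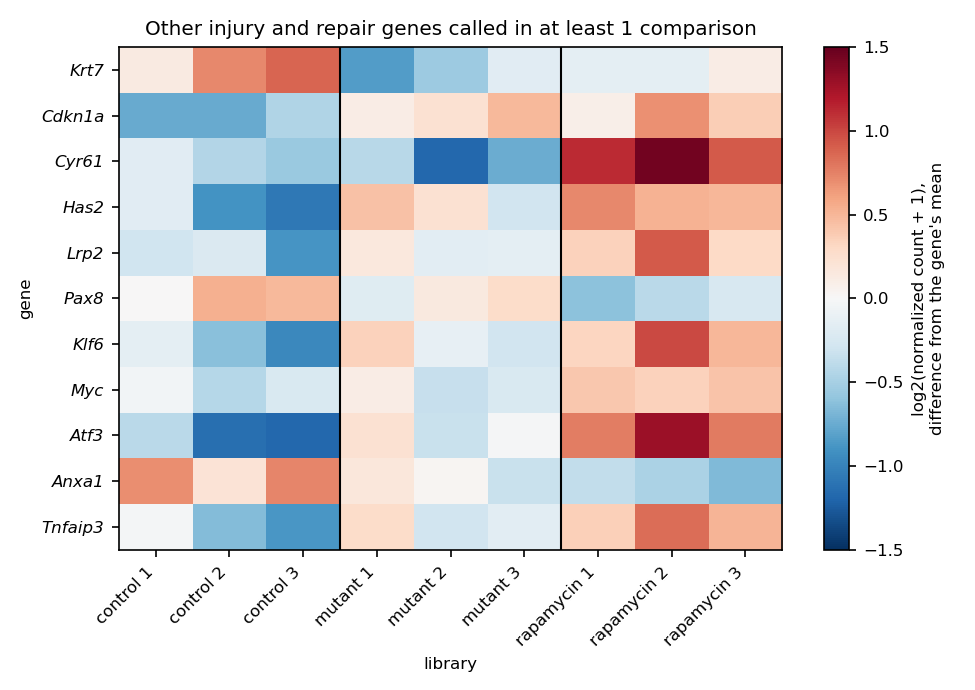
Difference of log2(normalized count + 1) from each gene's mean over the 9 libraries (colour, red above and blue below the mean) for the 11 other injury and repair genes called in at least 1 comparison. Cyr61 is high in the 3 rapamycin libraries alone, Cdkn1a is low in the 3 controls alone, and control 1 is closer to the mutants than the other controls for Has2, Klf6 and Tnfaip3.

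**Figure D4:**
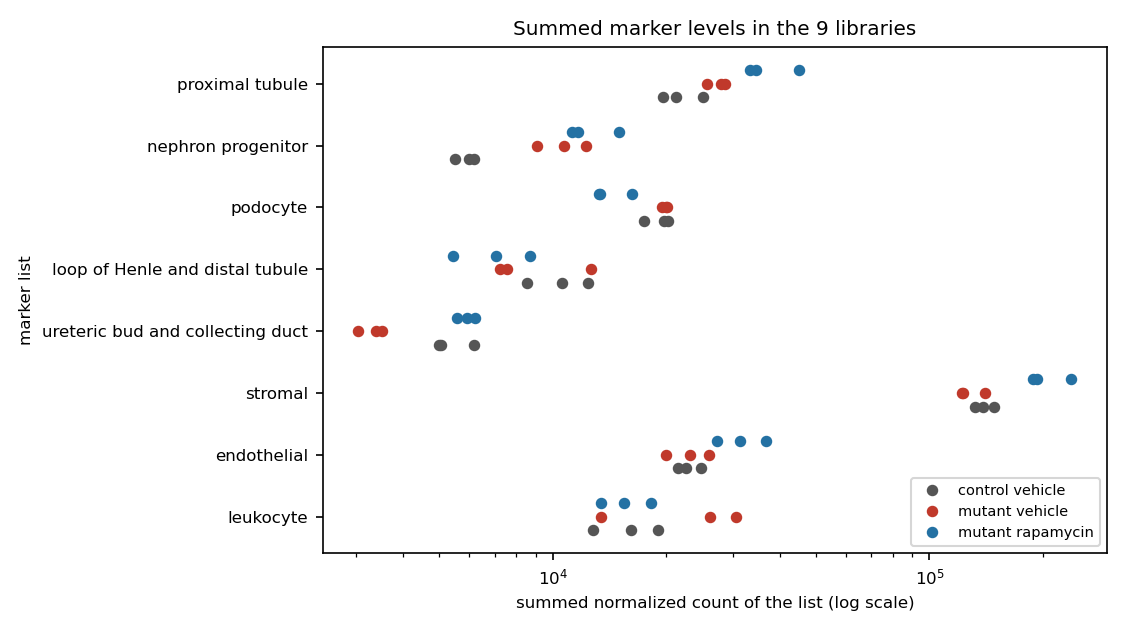
Summed normalized counts (horizontal log axis) of the markers of each cell type in each library, with points coloured by group. Ureteric bud and collecting duct sums are lowest in the 3 vehicle mutants, nephron progenitor sums are higher in all 6 mutant libraries, stromal and endothelial sums are highest with rapamycin, and leukocyte sums are raised in mutants 2 and 3 but not in mutant 1.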

How the data were processed

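Messenger RNA of CD133-sorted cells was prepared with a stranded kit and sequenced on an Illumina NextSeq instrument, per the labels' protocols. The submitters' processing notes name DESeq2 1.22.1, HTSeq 0.6.0, TopHat2 2.1.1 and cutadapt 1.18 with the GRCm38 genome. For the role of each tool, the annotation release and the strand setting of the counting, the sources used here give nothing. One table was deposited by the authors, holding raw read counts, normalized counts, log2 fold changes and p-values. It marks 6252 of 54838 genes with no raw count, and 24539 genes have a normalized count, those whose raw counts reach 10 in sum. Each deposited normalized count was the raw count over 1 size factor per library (largest relative departure 5.3e-15). Since the count columns hold these marks beside whole numbers, they were recorded under no count unit and the count models planned as alternatives were not run. Voom weights on the raw counts were used as an alternative in their place. There were 0 columns of per-sample values left unused.

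On the log2(value + 1) scale the normalized counts were fitted in R 4.3.3 by limma 3.58.1 with a trended, robust variance (statmod 1.5.0). All 9 libraries entered 1 fit of 3 group means. Genes with a mean of at least 5 were tested (19656), p-values were adjusted by Benjamini-Hochberg over all of them, and a gene was called at an adjusted p under 0.05. The script was checked on simulated data. All members were named, together with every gene of the wider injury list called in at least 1 comparison, and the 3 genes most like each called member among those with a mean of at least 100. The members and lists were chosen with earlier results of these data known. Coordinates are those of the deposited table (GRCm38), and for the 9 members they were identical in GENCODE M21, whose exons gave the lengths. Spp1 overlaps Gm42793 on the same strand (24 counts over the 9 libraries against 4252) and Vcam1 the antisense Gm43109 (11 against 16379). Without a known strand setting, reads of such pairs cannot be told apart. Intervals of count ratios are exact at the 95% level; reads are not independent molecules.

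Same-numbered libraries of vehicle mutants and controls deviated together, with correlations of 0.43, 0.14 and 0.45. Differently numbered libraries of these groups had correlations from -0.45 to 0.06. Similar high values also came without a shared number, at 0.47 for rapamycin 2 with control 1 and 0.39 for rapamycin 1 with control 3. Correlations of this size thus do not by themselves show a pairing. The numbers were used as a block in alternative fits only, and the main fit had no block. A pairing is read from the same data that the blocked fits test, since the labels give a number alone. Calls gained with the block are thus not independent support. Same-numbered rapamycin libraries had correlations between -0.34 and 0.22 with the other groups. Blocked fits that include them thus assume a pairing that these values do not show.

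The genes lie as follows in GRCm38. Spp1 (ENSMUSG00000029304) lies at chromosome 5, 104435118 to 104441050, plus strand. Cd44 (ENSMUSG00000005087) is at chromosome 2, 102811141 to 102901665, minus strand. Havcr1 (ENSMUSG00000040405) occupies chromosome 11, 46735080 to 46779578, plus strand. Lcn2 (ENSMUSG00000026822) is at chromosome 2, 32384633 to 32388252, minus strand. Clu (ENSMUSG00000022037) lies at chromosome 14, 65968483 to 65981547, plus strand. Vcam1 (ENSMUSG00000027962) is at chromosome 3, 116109949 to 116129688, minus strand. Krt20 (ENSMUSG00000035775) spans chromosome 11, 99428403 to 99438150, minus strand. Vim (ENSMUSG00000026728) is at chromosome 2, 13573927 to 13582826, plus strand. Sox9 (ENSMUSG00000000567) lies at chromosome 11, 112782224 to 112787760, plus strand. All are protein-coding, and values cover all exons.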

Additional observations from a re-analysis of the deposited data

How the results depend on the processing

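Alternatives were a pseudocount of 5, no filter on low values, only the 2 groups compared, the replicate block, leaving out control 1 together with rapamycin 2, and leaving out each library. Voom weights and upper-quartile scaling were added after seeing the data. TMM scaling and the count models were not run, and upper-quartile scaling moved the median of all genes by at most 0.029 in log2. Each library left out leaves 2 in its group, so lost calls partly reflect fewer samples. Genes near the minimum count, Havcr1 and Krt20 here, are limited by depth. Of 408 member values under the alternatives 387 kept direction and side of the threshold. That total includes genes that were uncalled throughout, and fits that left out a library outside the comparison, so it does not measure how firm the calls were. Lost calls made up 10 values, all of Cd44 between vehicle mutants and controls or of Spp1 between rapamycin and vehicle mutants. Of the 9 fits without 1 library, Cd44 kept that call in 6 and Spp1 in 4.

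With the replicate block in the 2 groups compared, vehicle mutants against controls gave 13 calls in the wider list and 867 over all genes, which included all 279 of the unblocked fit. That block gave 17 genes between rapamycin and vehicle mutants, and 2 members between rapamycin mutants and controls. With the replicate block in all 3 groups the wider list had 4 calls in the first comparison, 206 genes were called in the second, and 3 members (Cd44 higher, Lcn2 and Clu lower) and 1090 genes in the third. With only the 2 groups compared, 1 member, 0 of the wider list (limma, 18 at an unadjusted p under 0.05) and 99 genes were called in the first. Without both control 1 and rapamycin 2, the wider list had 5 calls in the first comparison. In the second 0 members (5 at an unadjusted p under 0.05) and 22 genes were then called, and Cdkn1a was -0.0465. In the third, Cdkn1a, Lrp2, Myc and Anxa1 lost their calls (adjusted p 0.0536 to 0.0725), with 1 member, 7 of the wider list and 477 genes called.

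Leaving out single libraries gave 1 to 2 members, 0 to 4 of the wider list and 81 to 336 genes for the first comparison. The 0 came without control 2, mutant 2 or rapamycin 3, with 15 to 17 of the list at an unadjusted p under 0.05. For the second it gave 0 to 1 members (3 to 4 at an unadjusted p under 0.05 where 0 were called), 0 to 4 of the wider list and 0 to 200 genes, both 0s coming without rapamycin 2 (14 of the list and 1825 genes at an unadjusted p under 0.05). For the third it gave 1 to 2 members, 3 to 16 of the wider list and 175 to 1131 genes. Differences near 0 changed sign: Sox9 ranged from -0.3606 to 0.0324 and Myc from -0.0529 to 0.175 in the first comparison. Lcn2 ranged from -0.63 to 0.13, Sox9 from -0.12 to 0.28 and Cdkn1a from -0.0465 to 0.25 in the second, and Vcam1 from -0.0778 to 0.16 and Krt20 from -0.48 to 0.32 in the third. The cause of these shifts was not tested.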
